A study of Mus musculus with 11 samples.

Results

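The small ribosomal subunit processome is the protein and RNA assembly that folds, modifies and cuts the front part of the precursor ribosomal RNA, and a further set of maturation factors carries the resulting particle, the pre-40S, to the cytoplasm and finishes it. The genes of 51 such proteins were examined in mouse soleus and quadriceps after induction of Myc. They were chosen by symbol, from a list of assembly factors of the small subunit, with earlier results of these data known. All 51 were rows of both deposited tables, out of 13359 genes listed in either table. Soleus, a calf muscle that holds posture, has many slow fibres, whereas the quadriceps of the thigh is mostly fast. Soleus gave 4 Myc-labelled and 3 control libraries with 11.1 to 14.9 M estimated reads each, and quadriceps 2 Myc-labelled and 2 control libraries with 14.2 to 18.4 M. Per the labels and the design text, the Myc-labelled mice overexpressed Myc from a tetracycline system, were given doxycycline overnight and were sampled 12 hours after its removal, and the controls had the same age, 2.5 months in all. Neither source gives the promoter that drives the system, the tissue it acts in, the strain or the genotype of the controls, or says whether controls took doxycycline. No label says whether libraries came from separate animals, so the p-values rest on a spread that may be technical. Exercise samples, which the design text refers to, are not analysed here.

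Levels are normalised read counts, and a log2 change is Myc-labelled minus control on the log2(value + 1) scale, from limma fits over all genes tested, with calls at an adjusted p under 0.05 over all genes. The row of Myc itself was examined first. It held 26.3, 31.0, 28.8 and 27.7 in Myc-labelled soleus libraries, against 30.04, 54.3 and 28.2 in control soleus libraries, and 86.4 and 33.6 in Myc-labelled quadriceps libraries, against 114 and 55.7 in control quadriceps libraries. The groups overlapped in both muscles (limma, log2 change -0.33, adjusted p = 0.69 in soleus, and -0.55, adjusted p = 0.93 in quadriceps). The Myc row thus did not set the Myc-labelled libraries apart, and all directions rest on the labels. Slow fibre genes summed to 504670 to 645089 in Myc-labelled soleus and 534736 to 622212 in control soleus. In quadriceps they summed to 1986 and 3525 in the Myc-labelled libraries, against 26329 and 191046 in the controls, so the quadriceps groups also differed in slow fibre RNA.

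In background terms, RNA polymerase I makes a long precursor whose leading part, the external spacer, is bound while it is still being made. The complexes UTP-A and UTP-B bind first, the U3 ribonucleoprotein pairs with the precursor, and the MPP10, UTP-C, BMS1 and NOP14 groups follow and close the processome. RNA helicases then open it, the spacer is cut off, and factors such as Bysl, Rrp12, Tsr1, Ltv1, Nob1 and the Riok kinases accompany the pre-40S until the end of 18S rRNA is trimmed. Myc is known in many cell types as an activator of genes for ribosome assembly and binds, with its partner Max, the E-box CACGTG.

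The promoter stretches of 7 members are shown: all 5 matched members with that E-box inside the stretch, and the members with the largest and the smallest soleus change. The sequences are those of RefSeq on GRCm38.p6, from 90 bases before to 30 bases after the annotated start, and capitals mark CACGTG, which reads the same on both strands. Wdr46, Tsr1, Utp18, Wdr43 and Nol11 hold it at first-base positions -12, 25, -20, 18 and -43, beside soleus log2 changes of 1.76, 1.53, 1.27, 1.31 and 0.71, with positions counted so that -1 is the base before the start and 1 is the start. Heatr1, with the largest soleus change, and Rrp36, with the smallest, hold none in these bases.
Wdr46 (GRCm38.p6 chr17:33940633-33940752, plus strand): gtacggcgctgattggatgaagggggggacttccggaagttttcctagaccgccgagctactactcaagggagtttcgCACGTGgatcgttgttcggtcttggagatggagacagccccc
Tsr1 (GRCm38.p6 chr11:74897990-74898109, plus strand): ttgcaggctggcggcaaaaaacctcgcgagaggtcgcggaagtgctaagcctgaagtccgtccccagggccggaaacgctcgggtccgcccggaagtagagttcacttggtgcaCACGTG
Utp18 (GRCm38.p6 chr11:93885737-93885856, minus strand): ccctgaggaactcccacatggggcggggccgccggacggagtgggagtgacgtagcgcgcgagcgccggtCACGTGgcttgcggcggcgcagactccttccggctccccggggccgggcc
Wdr43 (GRCm38.p6 chr17:71616125-71616244, plus strand): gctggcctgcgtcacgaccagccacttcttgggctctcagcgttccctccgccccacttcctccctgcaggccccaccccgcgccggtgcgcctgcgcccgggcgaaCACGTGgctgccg
Nol11 (GRCm38.p6 chr11:107189352-107189471, minus strand): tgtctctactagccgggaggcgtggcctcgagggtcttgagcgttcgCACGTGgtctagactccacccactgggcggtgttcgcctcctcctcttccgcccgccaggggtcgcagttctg
Heatr1 (GRCm38.p6 chr13:12395285-12395404, plus strand): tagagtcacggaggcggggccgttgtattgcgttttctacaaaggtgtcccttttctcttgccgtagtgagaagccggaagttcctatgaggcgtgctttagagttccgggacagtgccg
Rrp36 (GRCm38.p6 chr17:46674277-46674396, minus strand): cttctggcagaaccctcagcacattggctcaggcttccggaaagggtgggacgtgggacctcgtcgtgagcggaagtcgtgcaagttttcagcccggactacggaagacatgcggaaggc
For Rrp36 the downstream one of 2 annotated starts is shown, and the stretch at the other start holds no CACGTG either. Over the full windows of 300 bases, 250 before and 50 from the start, 44 of the 51 members matched by symbol with 46 windows, and 11 windows (23.9%) held CACGTG. The same motif was in 7.15% of all 32851 promoter windows and in 10.03% of the 12963 windows of genes tested in soleus. The 11 members with it were Aatf, Imp4, Ltv1, Nol11, Pno1, Rrp7a, Tsr1, Utp18, Utp20, Wdr43 and Wdr46, none with a second copy. Their median log2 change in soleus was 1.10, with a range of 0.55 to 1.77, against 0.75, with a range of 0.04 to 2.15, for the 33 members without it. In quadriceps the medians were 0.57 with the motif and 0.39 without it. A match is a description of the letters and not a measured binding site. The members Tbl3, Wdr36, Utp6, Nol6, Dcaf13, Fcf1 and Rrp12 were not matched.

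In soleus the small-subunit factors rose broadly in the Myc-labelled libraries. Of 51 members 39 were called higher (76.5%) and 0 lower, beside 7.06% of all 12745 genes tested called higher and 2.23% called lower. The median log2 change of the members was 0.81, a fold of 1.76, beside -0.03 for all genes tested, and all 51 had a value above 0 and 0 below it, beside 45.6% and 54.4% of all genes. At an unadjusted p under 0.05 there were 42 higher members and 0 lower, beside 12.9% and 8.77% of genes. A change of at least 2-fold with a call was found for 16 members, beside 2.06% of genes. For 42 members every Myc-labelled library lay above every control library and for 0 every one lay below, beside 12.7% and 8.35% of genes. By leading values, Heatr1 stood at 4.39 times its control mean, Wdr46 at 3.44, Aatf at 3.39, Pwp2 at 3.27 and Rrp12 at 3.15. A muscle library cannot tell more mRNA per fibre from more cells that hold the mRNA.

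**Figure D1:**
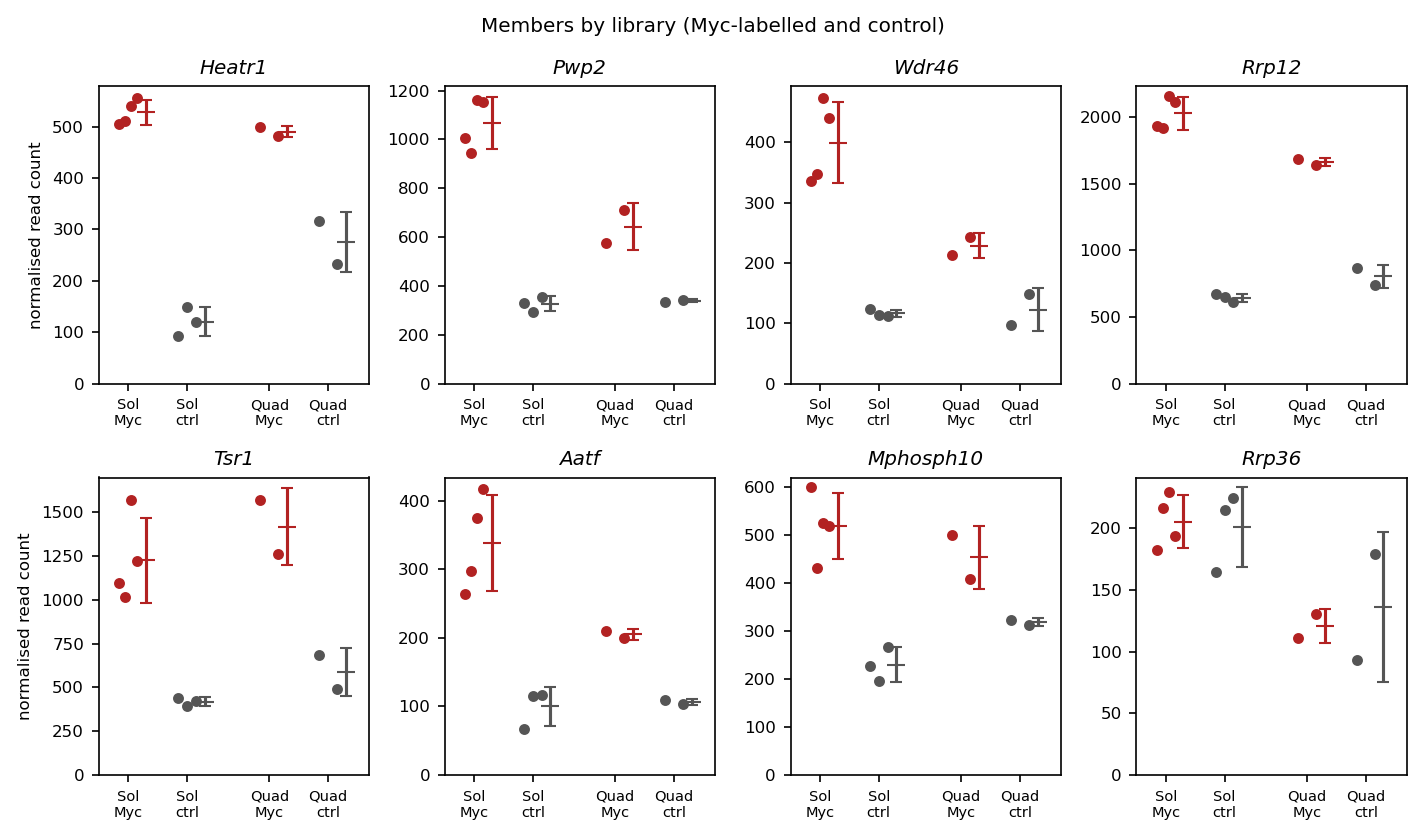
Normalised read counts (vertical axis, from 0) of 8 members in each library, Myc-labelled in red and control in grey, soleus left and quadriceps right in each panel; points are libraries, bars the mean and SD of 4, 3, 2 and 2 libraries. Heatr1 lies between 505 and 556 in Myc-labelled soleus and between 91.9 and 149 in control soleus, while the Rrp36 groups overlap in both muscles.

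The UTP-A complex, also called t-UTP, sits on the first stretch of the spacer, and all 5 of its members rose in soleus. Heatr1 had 505, 511, 540.0 and 556 normalised read counts in Myc-labelled soleus libraries, against 91.9, 149 and 119.7 in control soleus libraries (log2 change 2.15, SE 0.17, adjusted p = 5.7e-07). Heatr1, the counterpart of yeast Utp10, is a long repeat protein, and its groups were separated by a wide gap. Wdr43 had 1064, 1112, 1512 and 1204 normalised read counts in Myc-labelled soleus libraries, against 493, 502 and 469.6 in control soleus libraries (log2 change 1.31, SE 0.12, adjusted p = 3.3e-06). Wdr75 had 508, 522, 576 and 454 in Myc-labelled soleus, against 229.7, 251 and 256 in control soleus (log2 change 1.06, SE 0.13, adjusted p = 6.1e-05). Both are WD-repeat proteins of the complex, and in both every Myc-labelled library lay well above every control. Nol11, a subunit found in animals, and Utp15 rose less, with log2 changes of 0.71 (adjusted p = 0.0097) and 0.76 (adjusted p = 0.012). Without control replicate 2 the call of Nol11 was lost (limma, adjusted p = 0.070).

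UTP-B, a complex of mostly WD-repeat proteins that lies along the spacer next to UTP-A, rose in all 6 members. Pwp2 had 1008, 945, 1162 and 1153 normalised read counts in Myc-labelled soleus libraries, against 329.6, 294 and 356 in control soleus libraries (log2 change 1.70, SE 0.12, adjusted p = 2.0e-07). Wdr36 had 568, 640.4, 601 and 513 in Myc-labelled soleus, against 273, 333 and 345 in control soleus (log2 change 0.87, SE 0.13, adjusted p = 4.0e-04). Tbl3 had 449.7, 440.3, 602 and 470.1 in Myc-labelled soleus, against 250.1, 272 and 261 in control soleus (log2 change 0.90, SE 0.14, adjusted p = 5.4e-04). Pwp2 stood out within UTP-B at 3.27 times its control mean, with Tbl3 and Wdr36 at 1.88 and 1.83 times. Utp18, which in yeast brings in the RNA exosome, had a log2 change of 1.27, Wdr3 of 0.78 and Utp6, with the smallest change of the complex, of 0.49 (adjusted p = 0.0053, 0.014 and 0.0080). Control replicate 3 was the low library for both Utp18, at 66.9 beside 162 and 139, and Wdr3, at 123 beside 199 and 170, and without it the call of Wdr3 was lost (limma, adjusted p = 0.063).

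The U3 and MPP10 group was split, with 2 of 6 members called. Mphosph10, the scaffold of the MPP10 complex, had 599.6, 432, 525 and 519.6 in Myc-labelled soleus, against 226, 197 and 268 in control soleus (log2 change 1.17, SE 0.15, adjusted p = 8.4e-05). Rrp9, a protein specific to the U3 ribonucleoprotein, had 362, 383, 413 and 357 in Myc-labelled soleus, against 261, 219 and 217 in control soleus (log2 change 0.71, SE 0.14, adjusted p = 0.0042). The direct partners of Mphosph10 moved less than it did. Imp3 had 593, 524, 695 and 605 in Myc-labelled soleus, against 471, 492 and 403 in control soleus (log2 change 0.41, SE 0.13, adjusted p = 0.062), and Imp4 had 168, 183, 174 and 211 in Myc-labelled soleus, against 123, 149 and 107 in control soleus (log2 change 0.55, SE 0.20, adjusted p = 0.10). Their groups did not overlap, but the differences missed the threshold, and Imp3 passed it under library-size scaling and without Myc-labelled replicate 2 (limma, adjusted p = 0.028 and 0.046). Utp3 and Ngdn, which share a Sas10-type domain, overlapped between groups. Utp3 had 536, 525, 641 and 674 in Myc-labelled soleus, against 468, 472 and 545 in control soleus (log2 change 0.26, SE 0.13, adjusted p = 0.26). Ngdn had 259.9, 203, 243 and 311 in Myc-labelled soleus, against 207, 189 and 210.1 in control soleus (log2 change 0.31, SE 0.18, adjusted p = 0.32).

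Of the UTP-C and RRP5 group 3 of 4 members rose, by nearly the same amount. Nol6, the counterpart of yeast Utp22, had 724, 696, 956 and 820.4 in Myc-labelled soleus, against 479, 431 and 428 in control soleus (log2 change 0.83, SE 0.13, adjusted p = 4.0e-04). Its partner Rrp7a had 592, 657, 778 and 776 in Myc-labelled soleus, against 440.2, 363 and 366 in control soleus (log2 change 0.84, SE 0.13, adjusted p = 5.2e-04). Pdcd11, the counterpart of yeast Rrp5, a long RNA-binding protein used in the assembly of both subunits, had 402, 449.5, 512 and 495 in Myc-labelled soleus, against 299, 250.3 and 199.6 in control soleus (log2 change 0.91, SE 0.16, adjusted p = 0.0012). Rrp36 had the smallest change of all members, with 182, 216, 229 and 194 in Myc-labelled soleus, against 164, 214 and 224 in control soleus (log2 change 0.04, SE 0.18, adjusted p = 0.93), and its groups overlapped over most of their range.

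All 5 members of the BMS1 and NOP14 group rose. Bms1, a GTPase, had 736, 742, 796 and 820.4 in Myc-labelled soleus, against 513, 491 and 443 in control soleus (log2 change 0.68, SE 0.11, adjusted p = 6.8e-04). Nop14 had 559, 553, 785 and 554 in Myc-labelled soleus, against 349, 369 and 234 in control soleus (log2 change 0.96, SE 0.17, adjusted p = 0.0021), with replicate 3 far above the 3 other Myc-labelled libraries. Emg1, a methyltransferase that acts on 18S rRNA, had 666, 618, 758 and 622 in Myc-labelled soleus, against 437, 422 and 435 in control soleus (log2 change 0.62, SE 0.12, adjusted p = 0.0024). In each of these the lowest Myc-labelled library was above the highest control. Noc4l, the partner of Nop14, and Rcl1, which Bms1 brings into the processome, changed by 0.75 and 0.89 on the log2 scale (adjusted p = 0.0036 and 0.019). The call of Rcl1 was lost without Myc-labelled replicate 3 or 4 or control replicate 3 (limma, adjusted p = 0.052, 0.069 and 0.086).

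None of the 4 helicases was called in soleus. Ddx47 had 356, 416, 477 and 437 in Myc-labelled soleus, against 291, 336 and 359 in control soleus (log2 change 0.36, SE 0.14, adjusted p = 0.15). Ddx49 had 288, 259.6, 339 and 299 in Myc-labelled soleus, against 242, 206 and 295 in control soleus (log2 change 0.27, SE 0.17, adjusted p = 0.38). Ddx52 had 290.1, 306, 306 and 322 in Myc-labelled soleus, against 285, 254 and 268 in control soleus (log2 change 0.19, SE 0.14, adjusted p = 0.48). These 3 are DEAD-box helicases, and in Ddx52 alone the groups did not overlap, although by a narrow margin. Dhx37, the counterpart of the yeast DEAH helicase Dhr1 that frees U3 from the precursor, had 187, 151, 283 and 238 in Myc-labelled soleus, against 125, 137 and 225 in control soleus (log2 change 0.41, SE 0.25, adjusted p = 0.37). At an unadjusted p under 0.05 only Ddx47 passed. The 95% intervals of the 4 changes were -0.11 to 0.48 for Ddx52, -0.08 to 0.62 for Ddx49, 0.05 to 0.66 for Ddx47 and -0.12 to 0.93 for Dhx37, so a 2-fold rise lay outside each of them.

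Among the 11 other processome proteins 10 rose. Wdr46, the counterpart of yeast Utp7, had 337, 348, 474 and 440.4 in Myc-labelled soleus, against 124, 113 and 112 in control soleus (log2 change 1.76, SE 0.17, adjusted p = 4.4e-06). Utp14a, whose yeast counterpart activates Dhr1, had 659, 545, 593 and 577 in Myc-labelled soleus, against 232, 173 and 256 in control soleus (log2 change 1.44, SE 0.15, adjusted p = 8.9e-06). Aatf, the counterpart of yeast Bfr2, had 265, 298, 375 and 417 in Myc-labelled soleus, against 67.2, 115 and 117 in control soleus (log2 change 1.77, SE 0.23, adjusted p = 7.0e-05). Aatf and its partner Nol10 (log2 change 1.09, adjusted p = 0.0020) rose, while Ngdn, which in human cells forms a complex with both, was not called. Utp20 (1.10), a long repeat protein, and Nat10 (1.07), which acetylates cytidines of 18S rRNA, also changed by over 1 on the log2 scale. Nop9 (0.82), an RNA-binding repeat protein, Krr1 (0.73), a KH-domain protein, Esf1 (0.72) and Dcaf13 (0.61), the counterpart of yeast Sof1, rose by less. The call of Dcaf13 was lost without Myc-labelled replicate 3 or 4 or control replicate 1 or 2 (limma, adjusted p = 0.080, 0.079, 0.062 and 0.13). Fcf1, the nuclease that makes early cuts in the precursor, was not called: it had 96.4, 149.8, 138 and 99.0 in Myc-labelled soleus, against 112, 85.4 and 108 in control soleus (log2 change 0.23, SE 0.24, adjusted p = 0.64), and its groups overlapped.

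Of 10 pre-40S maturation factors 8 rose. Rrp12, a repeat protein used in export, had 1932, 1915, 2155 and 2113 in Myc-labelled soleus, against 673, 648 and 612 in control soleus (log2 change 1.65, SE 0.10, adjusted p = 3.8e-08). Tsr1, a GTPase-like protein that sits on the subunit face of the pre-40S, had 1097, 1015, 1567 and 1223 in Myc-labelled soleus, against 439.7, 392 and 424 in control soleus (log2 change 1.53, SE 0.14, adjusted p = 1.7e-06). Bysl, the counterpart of yeast Enp1, had 1132, 1096, 1230.0 and 1177 in Myc-labelled soleus, against 495, 461 and 572 in control soleus (log2 change 1.19, SE 0.11, adjusted p = 2.5e-06). Ltv1 (0.85), which is removed before the last steps, Nob1 (0.81), the nuclease that trims the end of 18S rRNA, its partner Pno1 (0.55), the kinase Riok2 (0.74) and Lyar (1.04), a nucleolar zinc-finger protein, rose as well. The 2 that were not called had the lowest control level per kilobase of exon among the 10. Dimt1, which methylates adenosines near the end of 18S rRNA, had 34.3, 58.7, 51.7 and 97.9 in Myc-labelled soleus, against 44.4, 40.7 and 22.2 in control soleus (log2 change 0.71, SE 0.40, adjusted p = 0.33). Riok1, a kinase of the last step, had 144, 162, 154 and 178 in Myc-labelled soleus, against 144, 99.9 and 167 in control soleus (log2 change 0.25, SE 0.22, adjusted p = 0.55). Riok2, called, had 693, 728, 727 and 704 in Myc-labelled soleus, against 462, 409 and 407 in control soleus.

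**Figure D2:**
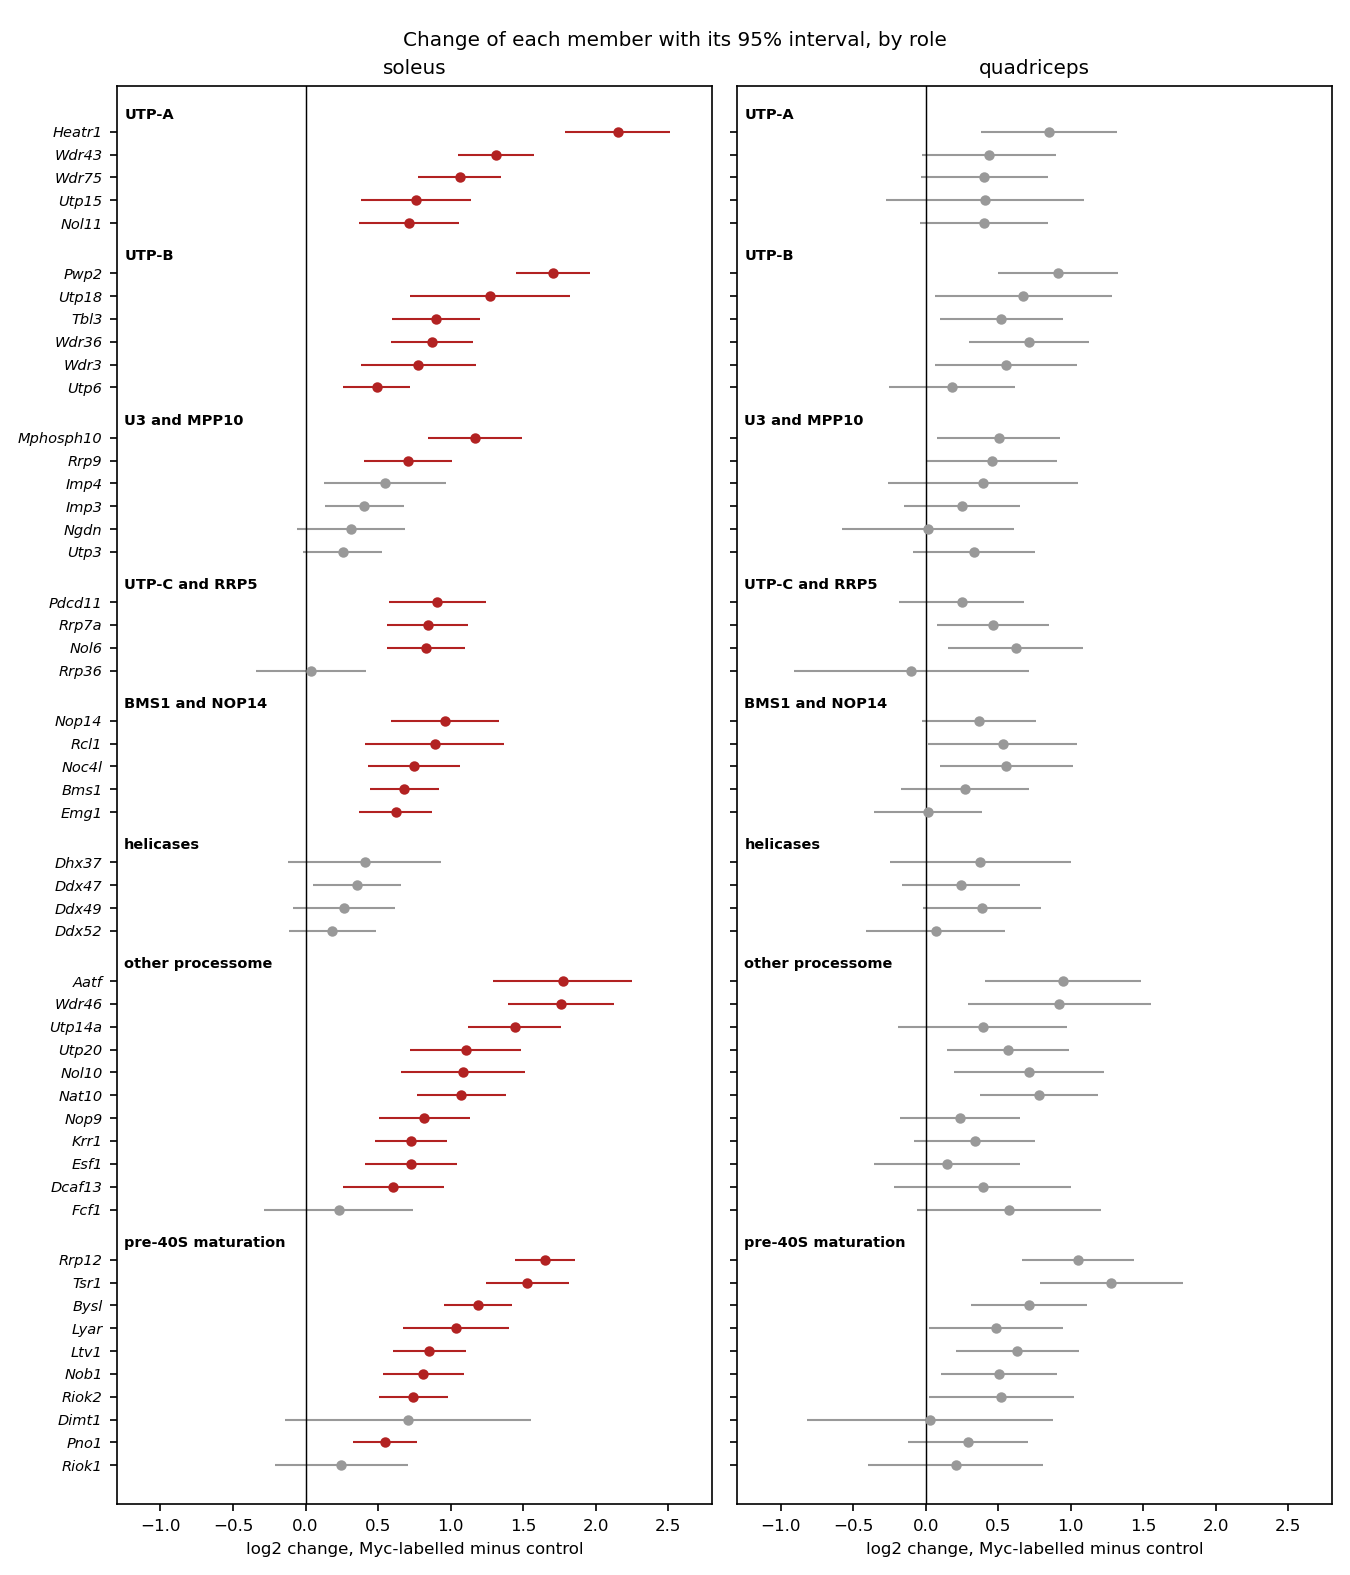
Log2 change, Myc-labelled minus control (horizontal axis), of each member with its 95% interval, grouped by role, in soleus (left) and quadriceps (right); red marks calls at an adjusted p under 0.05, grey the rest. In soleus 39 members are red and the helicases are all grey; in quadriceps no member is red and 50 of 51 points lie above 0.

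Library by library, the members moved together in soleus. Their median deviation from the control mean was 0.71, 0.75, 0.91 and 0.85 in Myc-labelled replicates 1 to 4, against 0.08, -0.03 and -0.0046 in controls 1 to 3, where values near 0 follow from the definition. Myc-labelled replicate 3 was the highest of its group for 26 members and replicate 4 for 15. These were also the libraries with the least tendon and fibroblast RNA: the 10 tendon markers summed to 8637, 7813, 2636 and 4303 in Myc-labelled replicates 1 to 4, against 8890 to 10806 in controls, and the 10 fibroblast markers to 23817, 27737, 11998 and 14945, against 23382 to 29107. Of the tendon markers 0 were called and 4 were lower at an unadjusted p under 0.05, and of the fibroblast markers 0 and 0. The 5 erythroid markers summed to 6002, 7523, 4305 and 3277 in Myc-labelled replicates 1 to 4, against 7444 to 7704 in controls. The 10 fast fibre genes summed to 426341, 571063, 685597 and 469101 in Myc-labelled replicates 1 to 4, against 652342 to 687119 in controls, with a median log2 change of -0.41. Of these 1 was called lower, the myosin light chain gene Mylpf (-0.47, limma, adjusted p = 0.010), and 3 were lower at an unadjusted p under 0.05. None of the tendon, fibroblast, erythroid and fast fibre markers was at 0 in a soleus library. The Schwann, macrophage, adipocyte, satellite and endothelial lists had median log2 changes of 0.46, -0.37, -0.32, -0.31 and -0.19, with 0 markers called. At an unadjusted p under 0.05, 2 Schwann markers were higher, and 1 marker of each of the other 4 lists was lower. The part of all these lists in the result was not tested. The fit without replicates 3 and 4 was added after the data were seen, and no share of all genes called was computed for it. In it 31 members were called and their median log2 change over all 51 was 0.74. Those that lost the call were Dcaf13, Esf1, Nol11, Rcl1, Utp15, Utp18, Utp6 and Wdr3 (limma, adjusted p = 0.22, 0.057, 0.11, 0.18, 0.076, 0.094, 0.054 and 0.11). Their log2 changes without both libraries were 0.466, 0.695, 0.622, 0.751, 0.769, 1.185, 0.489 and 0.740, beside 0.606, 0.725, 0.710, 0.890, 0.761, 1.268, 0.490 and 0.778 with all libraries. Summed over the 51 members, the level was 26884, 26471, 31259 and 29190 in Myc-labelled soleus, against 15596, 14719 and 14956 in control soleus, which is 1.89 times as much on average.

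**Figure D3:**
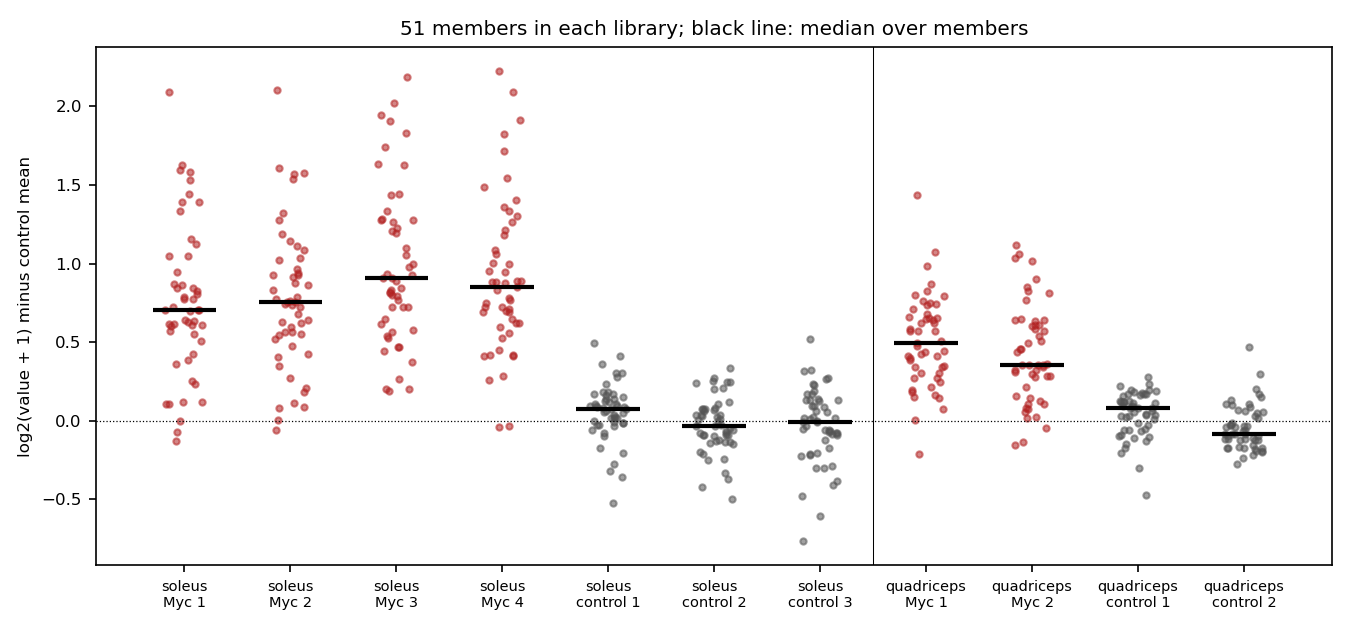
Each point is 1 of 51 members in 1 library, as log2(value + 1) minus the mean of the controls of that muscle (vertical axis); the black line is the median over members. The medians are 0.71 to 0.91 in Myc-labelled soleus and 0.36 and 0.50 in Myc-labelled quadriceps, above all control medians of the same muscle.

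In quadriceps the members lay mostly above control, and no member was called. Of 51 members 0 passed an adjusted p under 0.05 by limma and 0 by limma-voom, beside 0.00815% of the 12270 genes tested, which is 1 gene. At an unadjusted p under 0.05 there were 24 higher members (47.1%) and 0 lower, beside 3.97% of genes higher and 2.24% lower. The median log2 change of the members was 0.44, beside -0.03 for all genes, and 50 of 51 had a value above 0 and 1 below it, beside 45.8% and 54.2% of genes. Both Myc-labelled libraries lay above both controls for 40 members (78.4%) and below both for 0, beside 18.3% and 16.9% of genes. For 34 members the groups were separated upward in both muscles, beside 8.16% of genes. The median log2 change of the members was 0.36 without Myc-labelled replicate 1 and 0.50 without Myc-labelled replicate 2. It was 0.49 without control replicate 1 and 0.45 without control replicate 2. Each of these fits leaves 1 library in a group, so no result is drawn from counts of members in them. Of the 10 slow fibre genes 0 were called and 6 were lower in the Myc-labelled libraries at an unadjusted p under 0.05. The 10 tendon markers summed to 439 and 4143 in the Myc-labelled libraries, against 4366 and 2001 in the controls, and the 6 adipocyte markers to 41597 and 10807, against 23723 and 46211. Myc-labelled replicate 1 had the lowest fibroblast, macrophage, endothelial and erythroid sums, 17641, 766, 2895 and 1493. Replicate 2 had 34703, 1833, 4507 and 3901. Control replicate 1 had 23425, 1151, 4052 and 2448, and control replicate 2 had 30606, 2473, 3936 and 1708. The Schwann and satellite sums were also lowest in Myc-labelled replicate 1, and the fast fibre sum was highest there. The part of all these lists in the result was not tested.

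The 3 largest quadriceps changes were those of Tsr1, Rrp12 and Aatf. Tsr1 had 1571 and 1261 in Myc-labelled quadriceps, against 683 and 492 in control quadriceps (log2 change 1.28, SE 0.21, adjusted p = 0.23). Rrp12 had 1687 and 1641 in Myc-labelled quadriceps, against 866 and 743 in control quadriceps (log2 change 1.05, SE 0.17, adjusted p = 0.23). Aatf had 211 and 199 in Myc-labelled quadriceps, against 109 and 103 in control quadriceps (log2 change 0.94, SE 0.23, adjusted p = 0.43). In all 3 the lower Myc-labelled library was well above the higher control, at 2.41, 2.07 and 1.93 times between means. When soleus and quadriceps were fitted jointly, so that the soleus libraries add to the estimate of spread, 4 members were called higher, Rrp12, Tsr1, Pwp2 and Bysl (limma, adjusted p = 0.0034, 0.0098, 0.019 and 0.039), beside 0.643% of 11971 genes. That fit takes 1 spread for both muscles, although over the genes of the whole table quadriceps replicates differed more from each other. The chi-square per degree of freedom between replicates was there 70.4 and 62.6 in quadriceps, against 14.9 to 25.9 in soleus. The members alone did not show this. Their median SD as a share of the mean was 9.22% in Myc-labelled and 10.8% in control quadriceps, against 10.3% and 11.1% in soleus. Without Myc-labelled replicate 2, which leaves 1 library in that group, the log2 changes of Tsr1 and Rrp12 were 1.44 and 1.07.

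By role, the UTP-B members were the ones with the highest median change in quadriceps, 0.61, and 5 of 6 passed an unadjusted p under 0.05. Pwp2 had 575 and 709.6 in Myc-labelled quadriceps, against 335 and 343 in control quadriceps (log2 change 0.91, SE 0.18, adjusted p = 0.34). Wdr36 had 511 and 553 in Myc-labelled quadriceps, against 354 and 298 in control quadriceps (log2 change 0.71, SE 0.18, adjusted p = 0.45). Tbl3 had 336 and 377 in Myc-labelled quadriceps, against 254 and 242 in control quadriceps (log2 change 0.52, SE 0.18, adjusted p = 0.67). In these 3 both Myc-labelled libraries lay above both controls. For Utp18 and Wdr3 the log2 changes were 0.67 and 0.55 (adjusted p = 0.75 and 0.73), and Utp6, whose libraries overlapped, had 0.18 (adjusted p = 0.93). Of the UTP-A members only Heatr1 passed the unadjusted threshold. Heatr1 had 499 and 483 in Myc-labelled quadriceps, against 317 and 234 in control quadriceps (log2 change 0.85, SE 0.20, adjusted p = 0.41). Wdr43 had 1032 and 839.8 in Myc-labelled quadriceps, against 788 and 601 in control quadriceps (log2 change 0.44, SE 0.20, adjusted p = 0.82). Wdr75 had 356 and 336 in Myc-labelled quadriceps, against 283 and 240.2 in control quadriceps (log2 change 0.40, SE 0.19, adjusted p = 0.82). All 3 were without overlap between groups. Nol11 and Utp15 had 0.40 and 0.41 (adjusted p = 0.83 and 0.89).

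The U3 and MPP10 members had a median change of 0.36 in quadriceps. Mphosph10 had 499.8 and 408 in Myc-labelled quadriceps, against 324 and 313 in control quadriceps (log2 change 0.50, SE 0.18, adjusted p = 0.68). Rrp9 had 305 and 358 in Myc-labelled quadriceps, against 255 and 227 in control quadriceps (log2 change 0.46, SE 0.19, adjusted p = 0.80). Both passed the unadjusted threshold without overlap between groups. Imp3 had 586 and 676 in Myc-labelled quadriceps, against 494 and 566 in control quadriceps (log2 change 0.25). Imp4 had 114 and 161 in Myc-labelled quadriceps, against 98.6 and 107 in control quadriceps (log2 change 0.39). Utp3 had 764 and 599 in Myc-labelled quadriceps, against 552 and 523 in control quadriceps (log2 change 0.33). In Imp3, Imp4 and Utp3 both Myc-labelled libraries lay above both controls, and none of the 3 passed the unadjusted threshold. Ngdn, among the 3 smallest changes, had 193 and 153 in Myc-labelled quadriceps, against 147 and 196 in control quadriceps (log2 change 0.02, SE 0.25, adjusted p = 0.995), with overlap. In the UTP-C and RRP5 group Nol6 had 807 and 629 in Myc-labelled quadriceps, against 519.9 and 412 in control quadriceps (log2 change 0.62, SE 0.20, adjusted p = 0.62). Its partner Rrp7a had 784 and 675 in Myc-labelled quadriceps, against 532 and 523 in control quadriceps (log2 change 0.46, SE 0.16, adjusted p = 0.67). Pdcd11 had 305 and 328 in Myc-labelled quadriceps, against 282 and 252 in control quadriceps (log2 change 0.25, SE 0.18, adjusted p = 0.90). Rrp36 was the 1 member below 0, with 111 and 130.3 in Myc-labelled quadriceps, against 92.8 and 179 in control quadriceps (log2 change -0.10, SE 0.35, adjusted p = 0.98). Both Myc-labelled values of Rrp36 lay between the 2 controls.

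In the BMS1 and NOP14 group of quadriceps, Noc4l and Rcl1 passed the unadjusted threshold, at 0.56 and 0.53 on the log2 scale (adjusted p = 0.67 and 0.79). Bms1 had 819.7 and 686 in Myc-labelled quadriceps, against 701 and 551 in control quadriceps (log2 change 0.27, SE 0.19, adjusted p = 0.89). Nop14 had 492 and 461 in Myc-labelled quadriceps, against 389.9 and 348 in control quadriceps (log2 change 0.37, SE 0.17, adjusted p = 0.82). Emg1, called in soleus, had 753 and 691 in Myc-labelled quadriceps, against 746 and 684 in control quadriceps (log2 change 0.01, SE 0.16, adjusted p = 0.99), with the groups interleaved. Of the helicases none passed an unadjusted p under 0.05. Ddx49 had 376 and 358 in Myc-labelled quadriceps, against 274 and 286 in control quadriceps (log2 change 0.39). Ddx47 had 392 and 376 in Myc-labelled quadriceps, against 344 and 306 in control quadriceps (log2 change 0.24). Dhx37 had 120.3 and 144 in Myc-labelled quadriceps, against 94.0 and 109 in control quadriceps (log2 change 0.38). In these 3 helicases both Myc-labelled libraries lay above both controls. Ddx52 had 391 and 295 in Myc-labelled quadriceps, against 346 and 303 in control quadriceps (log2 change 0.07), with overlap, and the adjusted p of the 4 helicases ran between 0.81 and 0.98.

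Of the other processome proteins, Nat10, Aatf, Wdr46, Nol10 and Utp20 passed the unadjusted threshold in quadriceps. Wdr46 had 214 and 244 in Myc-labelled quadriceps, against 97.5 and 148 in control quadriceps (log2 change 0.92, SE 0.27, adjusted p = 0.56). Utp14a, among the strongest in soleus, had 349.8 and 242 in Myc-labelled quadriceps, against 253 and 194 in control quadriceps (log2 change 0.39, SE 0.25, adjusted p = 0.87), and its groups overlapped. Nat10, Nol10 and Utp20 had log2 changes of 0.78, 0.71 and 0.57, and Krr1, Dcaf13, Nop9 and Esf1 of 0.34, 0.39, 0.24 and 0.15, all with an adjusted p above 0.05. Fcf1 had 123 and 124 in Myc-labelled quadriceps, against 77.8 and 88.1 in control quadriceps (log2 change 0.58, SE 0.27, adjusted p = 0.83), without overlap. The pre-40S factors had a median of 0.51, and 7 of 10 passed the unadjusted threshold: Rrp12, Tsr1, Bysl (0.71), Ltv1 (0.63), Nob1 (0.51), Lyar (0.48) and Riok2 (0.52). Bysl had 762 and 924 in Myc-labelled quadriceps, against 532 and 493 in control quadriceps (log2 change 0.71, SE 0.17, adjusted p = 0.43). Pno1 had a log2 change of 0.29. Riok1 had 139.9 and 121 in Myc-labelled quadriceps, against 121 and 106 in control quadriceps (log2 change 0.21, SE 0.26, adjusted p = 0.95). Dimt1 had 48.5 and 50.2 in Myc-labelled quadriceps, against 49.4 and 47.3 in control quadriceps (log2 change 0.03, SE 0.36, adjusted p = 0.99), with both groups at one level.

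The median deviation over members was 0.50 and 0.36 in Myc-labelled quadriceps replicates 1 and 2, against 0.08 and -0.08 in controls 1 and 2. The summed level was 25467 and 23749 in Myc-labelled quadriceps, against 18484 and 16434 in control quadriceps, 1.41 times as much on average. The tables of the muscles were normalised separately, so levels are not compared between them.

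The change was larger in soleus than in quadriceps for 48 of 51 members and smaller for 3, beside 54.2% and 45.8% of genes, with a median difference of 0.35 on the log2 scale, beside 0.03 for all genes tested in both. The test of the difference, in a joint fit of the 11 libraries, called 0 members at an adjusted p under 0.05, as it called 0% of 11971 genes, and limma-voom called 0 members. That fit took libraries of the same number in both muscles as independent, since no label says whether they share an animal. At an unadjusted p under 0.05 there were 14 members with a larger change in soleus and 0 with a larger one in quadriceps, beside 2.59% and 0.593% of genes. The largest difference was that of Heatr1, 1.302 (95% interval 0.72 to 1.89; limma, adjusted p = 0.39). Utp14a differed by 1.05 (0.44 to 1.66; adjusted p = 0.76) and Wdr43 by 0.88 (0.39 to 1.36; adjusted p = 0.67). The others past the unadjusted threshold were Wdr46 (0.84), Aatf (0.83), Pwp2 (0.79), Mphosph10 (0.67), Pdcd11 (0.66), Wdr75 (0.66), Emg1 (0.61), Rrp12 (0.60), Nop9 (0.58), Esf1 (0.58) and Bysl (0.48). Fcf1, Ddx49 and Utp3 had the larger value in quadriceps, with soleus minus quadriceps differences of -0.35 (-1.14 to 0.45), -0.12 (-0.65 to 0.41) and -0.07 (-0.53 to 0.39), intervals that include 0. Pearson's r between the changes in both muscles was 0.76 over the 51 members (Spearman's rho 0.74), beside 0.46 (0.51) over all genes tested in both. Members of 1 muscle share their libraries and are not independent, so this is a description.

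**Figure D4:**
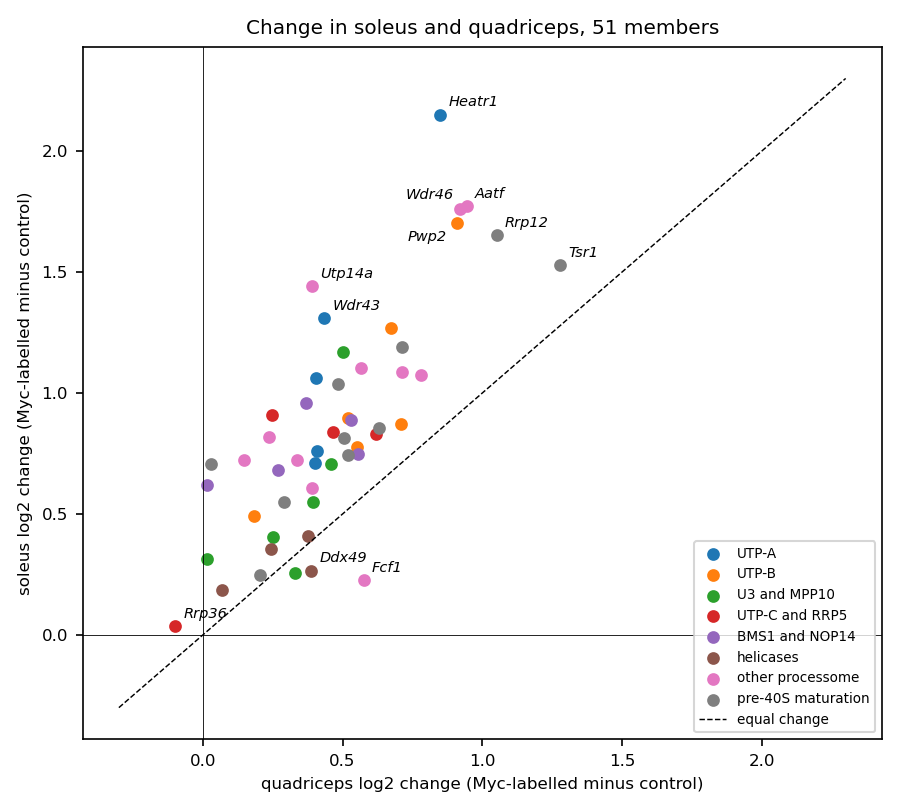
Log2 change of each of the 51 members in quadriceps (horizontal axis) and soleus (vertical axis), coloured by role; the dashed line marks equal change. Of the points 48 lie above the line, with Heatr1 highest at 2.15 in soleus, and Fcf1, Ddx49 and Utp3 below it.

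Across the 51 members, Pearson's r between the log2 control mean and the log2 change, which share the control libraries, was -0.07 in soleus and 0.04 in quadriceps, as a description. Per kilobase of annotated exon (GENCODE M21, GRCm38), Imp3 and Pno1 were the most abundant members in control soleus, at 493 and 432 normalised reads per kilobase, and Dimt1 and Riok1 the least, at 9.29 and 14.5. Of these 4 only Pno1 was called in soleus. Exons of 23 members overlapped those of a gene on the other strand, in 5 of them over more than 20% of their length, and the sources do not say whether counting used strand, so these reads cannot be told apart. The 5 were Tbl3 (37.3%, with Noxo1), Tsr1 (32.3%, with Srr), Dimt1 (31.9%, with Kif2a), Nop9 (29.9%, with Cideb) and Ddx49 (29.8%, with Homer3). In soleus the neighbours Srr, Kif2a and Homer3 had log2 changes of -0.35, 0.08 and 0.08 (limma, adjusted p = 0.19, 0.90 and 0.92), Noxo1 was under the filter and Cideb was not in the table. The part of shared reads in the members' values was not tested.

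Of 20 further genes of small-subunit assembly that are no members, 9 rose and 0 fell in soleus, beside the 7.06% and 2.23% of all genes. Their median log2 change was 0.54, beside 0.81 for the members, of which 39 of 51 rose. They included the core proteins of the U3 ribonucleoprotein, Nop58 (1.93), Nop56 (1.496), the methyltransferase Fbl (1.46) and Snu13 (0.63), the UTP-A member Utp4 (0.93), Utp25 (0.74), the helicase Ddx10 (0.81) and the methyltransferase Bud23 (0.57). The ninth, Sdad1 (1.24), is better known from the large subunit. Utp11 (0.42), Csnk1d (0.30), Abt1 (0.52) and Tsr2 (0.56) passed the unadjusted threshold alone, and Riok3 (-0.0013), Kri1 (-0.04) and Csnk1e (-0.07) lay at control level. In quadriceps 0 of the 20 were called and 4 were higher at an unadjusted p under 0.05, beside 0.00815% and 3.97% of all genes. The 4 were Nop56 (0.72), Nop58 (0.86), Fbl (0.87) and Sdad1 (0.59), and the list median was 0.24.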

How the data were processed

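For each muscle the authors deposited 1 table of normalised signal by gene. The values behave as estimated reads over a size factor of the library. Of the normalised values below 300, 91.0% to 93.4% came within 0.02 reads of a whole multiple of the library's step, too few for a count test. DESeq2, Partek, STAR 2.7.8a, mm10 and mm39 are named, per the submitters' processing notes, without role or order; strandedness is not given in the sources used here. No replicate pair agreed within sampling noise, and none was merged.

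Here, limma 3.58.1 (R 4.3.3, statmod 1.5.0) was run within each muscle on log2(value + 1), with trended, robust moderation. Genes had to reach 10 in 3 libraries of soleus or 2 of quadriceps. All 51 members passed that filter. The pseudocount understates changes of low genes. Differences between muscles were tested in 1 fit over 11 libraries, with 1 spread taken for both muscles. All p-values were adjusted by Benjamini-Hochberg over all genes tested. On simulated data with known changes the estimates were close to the true changes, but the share of false calls was above the nominal level in soleus and far above it in quadriceps and for the difference. Of the changes put into those data, most of the larger ones were called in soleus, and most of both sizes were missed in quadriceps and for the difference, so counts of 0 there do not show a lack of change. The members and lists were chosen with earlier results of these data known. Every member is named, and values in every library are given for the 3 with the smallest soleus p in each role, for those not called in soleus and for the 3 largest and 3 smallest changes of each muscle. The alternatives were library-size scaling, other pseudocounts, no filter, limma-voom on estimated reads, no robust moderation, a replicate block, a joint fit and leaving out libraries.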

Additional observations from a re-analysis of the deposited data

Results flagged for a closer look

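In 3 of 53 sets of values from the 4 Myc-labelled soleus libraries (the 51 members, their median and their sum), 1 library lay far from the others, measured as its gap to the nearest library over the whole range on the log2(value + 1) scale. Chance alone marks about 1 set in 20. For Nop14 the share was 0.972, with replicate 3 at 785 and the other libraries at 553 to 559. For Nol11 it was 0.899, with replicate 4 at 513 and the others at 406 to 416. For Nob1 it was 0.86, with replicate 2 at 748 and the others at 901 to 929. In all 3 genes the library that stood apart, too, lay above every control library.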

How the results depend on the processing

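In soleus 31 of the 39 called members kept the call under each of 16 alternatives, and 8 named in the report lost it under 1 or more. The count of called members was 37 to 40 when 1 library was left out, with medians of 0.74 to 0.87. The share of all genes called was not computed for these fits. In quadriceps 4 members were called in the joint fit of all libraries, and 0 to 2 when 1 library was left out (Tsr1 and Rrp12 without Myc-labelled replicate 2). The count at an unadjusted p was then 10 to 23. A lone library left in a group was assumed to vary like the others. The share of all genes was not computed for the quadriceps fits without 1 library. Their counts thus stand without a comparison, and no result is drawn from them. The difference between muscles called 0 members under each of 18 alternatives.

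Changes near 0 turned sign. Rrp36 in soleus was -0.0064 without Myc-labelled replicates 3 and 4 and -0.10 to 0.12 without 1 library, and Ngdn in quadriceps was -0.014 by limma-voom. Leaving out 1 library gave ranges in quadriceps of -0.13 to 0.27 for Ddx52, -0.00094 to 0.060 for Dimt1, -0.048 to 0.076 for Emg1, -0.13 to 0.42 for Esf1, -0.19 to 0.22 for Ngdn and -0.57 to 0.37 for Rrp36, and for the soleus minus quadriceps differences of -0.25 to 0.010 for Ddx49 and -0.25 to 0.10 for Utp3. The cause was not tested.

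With a replicate block, soleus had 39 called members and a median of 0.79, quadriceps 0 called and 29 at an unadjusted p, and the difference 0. The share of all genes was not computed for the blocked fits, so these counts stand without a comparison. Deviations of same-numbered Myc-labelled and control libraries correlated at 0.0010, 0.076 and 0.14 in soleus. Myc-labelled soleus replicate 1 correlated best with control replicate 2 (0.21), so the soleus numbers were not taken as pairs. In quadriceps the correlation was 0.14 for same-numbered libraries and -0.14 for the others. With 2 libraries in each group these values can differ only in sign, so they cannot decide on pairing. No correlation was computed between libraries of the same number in soleus and quadriceps, so whether they share an animal was not tested. With 2 against 2 libraries in quadriceps, the precision is low.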
